A study of Mus musculus with 8 samples.

Results

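Pyruvate enters mitochondria through a carrier built from MPC1 and MPC2, is turned into acetyl-CoA by the pyruvate dehydrogenase complex, and is then oxidised in the tricarboxylic acid (TCA) cycle, whose citrate synthase step joins acetyl-CoA to oxaloacetate. Mouse oocytes depend on pyruvate, largely supplied by the surrounding cumulus cells, as they use glucose poorly by themselves. The RNAs described here were 9 genes taken by symbol from the deposited tables, out of 15962 genes listed in both sets of tables. They were the carrier genes *Mpc1* and *Mpc2*, the pyruvate dehydrogenase genes *Pdha1*, *Pdhb* and *Dlat*, and the TCA cycle genes *Cs*, *Idh3a*, *Fh1* and *Mdh2*. They were taken by symbol and not by a cut on their values, but earlier results of these data were known when they were chosen. All 9 were among the 13968 genes tested.

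Polyadenylated RNA was profiled in 8 mouse oocyte libraries, 2 from each of 4 groups. The labels' protocol speaks of 3 samples for each group, while every value here rests on 2 libraries. GV (germinal vesicle, prophase-arrested) and MII (metaphase II) oocytes came from in vitro culture. Btg4wt and Btg4tm were MII oocytes injected at the fully grown stage with cRNA for wild-type BTG4 or for a mutant in which T145, S146 and S147 were replaced by alanine. BTG4 recruits the CCR4-NOT deadenylase to maternal mRNAs, which are removed in large numbers during maturation. The methods name no deletion of *Btg4* in the injected oocytes, and a group injected with the empty vector is not among the libraries used here. Each library held 15 oocytes freed of the zona pellucida. The sources used here do not say whether libraries of a group came from separate animals, so p-values measure only the spread between these samples, which may be technical.

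Values are given as scaled TPM, the deposited TPM (transcript abundance per length, as a share of the library) after scaling by the median of ratios, with scaling factors from 0.948 to 1.11. TPM are shares of a library, and sequencing depth is unknown. Reverse transcription started from the poly(A) tail, so fewer molecules and shorter tails cannot be told apart. All 10 oocyte markers were listed, with summed levels from 38600 to 50800 scaled TPM over the 8 libraries. The sum hides opposite moves of single markers. In MII over GV, 3 were called lower and 1 higher (log2 fold changes from -2.59 to 1.32), beside 24% and 12.5% of all genes. In Btg4tm over Btg4wt, 3 were called higher and 1 lower (from -1.12 to 2.37), beside 18.1% and 7.94%. Of 14 markers of cumulus and granulosa cells, 8 were not listed in both sets of tables, and the other 6 summed to 24 to 24.2 scaled TPM in GV, 32.1 to 35 in MII, 27.9 to 32.7 in Btg4wt and 28.2 to 33.3 in Btg4tm oocytes. Of the 4 markers of these cells that were tested, *Inha*, at 0 in 1 MII library, was called lower in MII over GV (log2 fold change -1.72) and higher in Btg4tm over Btg4wt (1.74), *Kitl* gave 0.95 and -0.76, *Cyp19a1* 0.63 and -0.23, and *Star* -0.12 and 0.34, and these 3 were not called. Mitochondrially encoded RNAs took 0.626% to 0.652% of the TPM in GV, 2.6% to 2.71% in MII, 1.75% to 2.05% in Btg4wt and 0.765% to 1.02% in Btg4tm libraries. The part of either shift in the results below was not tested, apart from the rescaling to mitochondrially encoded RNAs.

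The members' 3′ ends were read first, since deadenylation acts there. Matches to the cytoplasmic polyadenylation element were searched as TTTTAT on the transcript strand only. In the last 150 bases of the 3′ UTR, 4 of the 9 members had a match. Of 11097 tested genes with a coding transcript in GENCODE M21, 19.2% had one. The sites are printed 5′ to 3′ on the transcript strand with the element in capitals, because they set these members apart from the other 5, and positions are on GRCm38.
Pdha1 (chrX:160122324-160122353, minus strand): attccaattttgTTTTATtgtatagtaatg
Cs (chr10:128362454-128362479, plus strand): aataataaatgtTTTTATtaacaatg
Idh3a (chr9:54604529-54604558, plus strand): tttttttaaagcTTTTATttggacttacaa
Fh1 (chr1:175600374-175600400, minus strand): aaataaagtttaTTTTATaaaagaaaa
The element lay 127 and 115 bases before the annotated transcript end in *Pdha1* and *Idh3a*, but 8 and 9 bases before it in *Cs* and *Fh1*, where it followed the poly(A) signal AATAAA. *Mpc1*, *Mpc2*, *Pdhb*, *Dlat* and *Mdh2* had no match in this window. In the last 50 bases, 6 members had AATAAA (63.4% of the tested genes did), *Pdha1* and *Dlat* had the variant ATTAAA, and *Mdh2* had neither. These matches describe letters in an annotated window and show no binding.

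Of the 9 members, *Mdh2* had the largest log2 fold change in MII over GV. In MII over GV oocytes, 3 of the 9 members were called lower (*Mdh2*, *Fh1* and *Mpc2*) and 0 were called higher. A call needed an adjusted p under 0.05 in limma's test with Benjamini-Hochberg correction over all genes tested, and an absolute log2 fold change over 1. Among all genes tested, 24% were called lower and 12.5% higher. The members' median log2 fold change was -0.51, beside 0 over all genes. With no minimum fold change, 5 members were lower and 1 was higher, while 62.6% of all genes passed the adjusted p in either direction. The background split moved with the scaling: 26.5% were lower and 8.2% higher with TPM as deposited, and 19.1% and 22.6% after quantile normalisation.

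With mutant BTG4, *Mdh2* and *Mpc2* stood higher than with wild-type BTG4. In Btg4tm over Btg4wt oocytes, 2 of the 9 members were called higher and 0 were called lower. Among all genes tested, 18.1% were called higher and 7.94% lower. The background split after quantile normalisation was 14.7% higher and 13% lower. The members' median log2 fold change was 0.32, beside 0.01 over all genes. With no minimum fold change, 4 members were higher and 1 was lower, while 49.5% of all genes passed the adjusted p in either direction. MII over GV and Btg4tm over Btg4wt share no library.

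**Figure D1:**
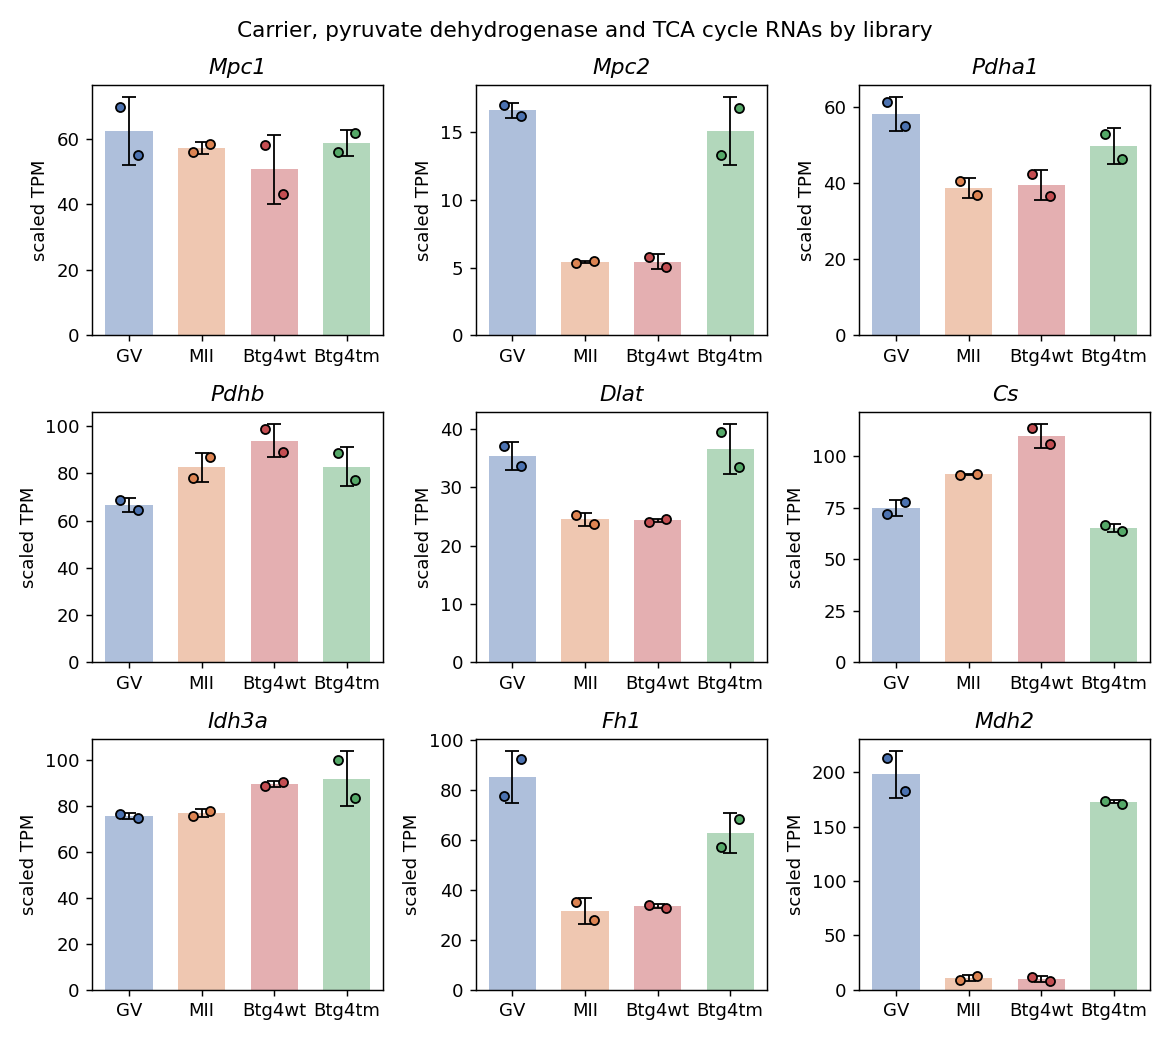
Scaled TPM (linear axes from 0) of the 9 members in GV, MII, Btg4wt and Btg4tm oocytes. Points are the 2 libraries of a group, bars their mean and error bars the SD. Mdh2 stood at 183 and 213 in GV, at 7.6 to 12.7 in the MII and Btg4wt libraries, and at 171 and 174 in Btg4tm, whereas Idh3a stayed between 74.6 and 100 in all 8 libraries.

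The carrier works as a heteromer of both proteins. *Mpc1* (chr17:8282904-8297661, plus strand) read 69.8 and 55.1 scaled TPM in GV, 56 and 58.5 in MII, 58.1 and 43.2 in Btg4wt, and 55.9 and 61.7 in Btg4tm oocytes. These groups overlapped in both comparisons. The log2 fold change was -0.12 (95% interval -0.5 to 0.27, adjusted p = 0.57, limma) in MII over GV and 0.23 (-0.16 to 0.61, adjusted p = 0.3, limma) in Btg4tm over Btg4wt. *Mpc1* is uncertain, as 44.2% of its 50-base stretches recur in other annotated genes, the pseudogene *Mpc1-ps* among them, and 23.1% of its exonic bases overlap a gene on the opposite strand that unstranded counting cannot separate.

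*Mpc2* (chr1:165460637-165481214, plus strand) was the lowest member and read 17 and 16.2 scaled TPM in GV, 5.34 and 5.48 in MII, 5.81 and 5.03 in Btg4wt, and 13.3 and 16.8 in Btg4tm oocytes. Both MII and both Btg4wt libraries lay below every GV and Btg4tm library. Its mean was 3.07-fold higher in GV than in MII oocytes (log2 fold change -1.46 ± 0.17 SE, adjusted p = 0.00015, limma). It was 2.78-fold higher in Btg4tm than in Btg4wt oocytes (1.32 ± 0.17 SE, adjusted p = 4e-04, limma). With only 1025 bases, its transcript was longer than those of just 7.34% of the tested genes with a coding transcript. When the dependence on transcript length and GC content was removed by loess, a choice made after the data were seen, both calls ended: the log2 fold changes were -0.34 (adjusted p = 0.099, limma) and 0.44 (adjusted p = 0.049, limma). The same step turned *Mpc1*, at 958 bases, to 0.52 and -0.44.

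Median changes differed between length classes over all genes. In MII over GV, the median log2 fold change was -1.01 over 1924 genes of up to 1500 bases, -0.27 over 3932 genes of over 1500 and up to 3000 bases, and 0.41 over 5241 longer genes. In Btg4tm over Btg4wt the medians were 0.79, 0.2 and -0.37. *Mpc2* made up 0.243 and 0.294 of the *Mpc1* level in GV, 0.0955 and 0.0936 in MII, 0.1 and 0.116 in Btg4wt, and 0.238 and 0.273 in Btg4tm libraries. Such ratios within a library do not depend on scaling, but they do depend on the uncertain *Mpc1* level and on GC content, which was 53.3% in the *Mpc2* and 45% in the *Mpc1* transcript. MII lay below GV and Btg4wt below Btg4tm without overlap, while the GV and Btg4tm ratios overlapped. Such separation was common for single genes. Both MII libraries lay below both GV libraries in 41.6% of all genes and above them in 41.1%. Both Btg4tm libraries lay below both Btg4wt libraries in 36.7% and above them in 37.6%. The exact permutation test (two-sided) of 2 against 2 libraries gave its smallest possible p of 0.333 for both differences, here and for every ratio below.

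In the pyruvate dehydrogenase complex, no member was called in MII over GV or in Btg4tm over Btg4wt. *Pdha1* encodes the E1 alpha subunit (chrX:160122209-160138413, minus strand), whose phosphorylation switches the complex off. It read 61.4 and 55.1 scaled TPM in GV, 40.6 and 36.9 in MII, 42.4 and 36.8 in Btg4wt, and 53.1 and 46.5 in Btg4tm oocytes. *Pdha1* was lower in MII over GV by the adjusted p but under the minimum fold (log2 fold change -0.58, 95% interval -0.88 to -0.27, adjusted p = 0.0053, limma). Both Btg4tm libraries lay above both Btg4wt libraries, with a log2 fold change of 0.32 that missed the threshold (0.02 to 0.63, adjusted p = 0.074, limma). Exons of *Map3k15* on the opposite strand cover 16.1% of its exonic bases, so part of this signal cannot be assigned.

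*Dlat* (chr9:50634633-50659780, minus strand) encodes the E2 subunit, which carries lipoate and passes the acetyl group to coenzyme A. It read 37 and 33.6 scaled TPM in GV, 25.2 and 23.7 in MII, 24.1 and 24.6 in Btg4wt, and 39.5 and 33.4 in Btg4tm oocytes. The level in Btg4tm covered the GV range, and the MII and Btg4wt libraries sat together below it. Its log2 fold changes of -0.51 (adjusted p = 0.0095, limma) and 0.56 (adjusted p = 0.008, limma) passed the adjusted p and stayed under the minimum fold. After quantile normalisation neither *Dlat* value passed it (-0.26, adjusted p = 0.11, and 0.34, adjusted p = 0.055, limma), and the first did not without GV replicate 1 (adjusted p = 0.059, limma) or MII replicate 2 (adjusted p = 0.062, limma).

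*Pdhb* (chr14:8165996-8173025, minus strand) encodes the E1 beta subunit, the partner of PDHA1. It read 68.8 and 64.5 scaled TPM in GV, 78 and 86.9 in MII, 98.8 and 88.9 in Btg4wt, and 88.7 and 77.1 in Btg4tm oocytes. GV libraries were the lowest, and *Pdhb* did not pass the test in either comparison. The log2 fold changes were 0.3 (95% interval 0.03 to 0.58, adjusted p = 0.055, limma) and -0.18 (-0.45 to 0.1, adjusted p = 0.25, limma). *Pdhb* also shares 30.3% of its 50-base stretches with *Gm6123*, so reads may have been lost or split.

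Relative to *Pdhb*, *Pdha1* and *Dlat* were lower in MII than in GV oocytes. *Pdha1* was 0.894 and 0.855 of the *Pdhb* level in GV, 0.52 and 0.425 in MII, 0.429 and 0.413 in Btg4wt, and 0.598 and 0.602 in Btg4tm libraries. For *Dlat* the ratios were 0.538 and 0.521, 0.323 and 0.273, 0.244 and 0.276, and 0.445 and 0.433 in the same order. In neither case did MII overlap GV, or Btg4tm overlap Btg4wt, and the Btg4tm ratios lay between those of Btg4wt and GV.

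**Figure D2:**
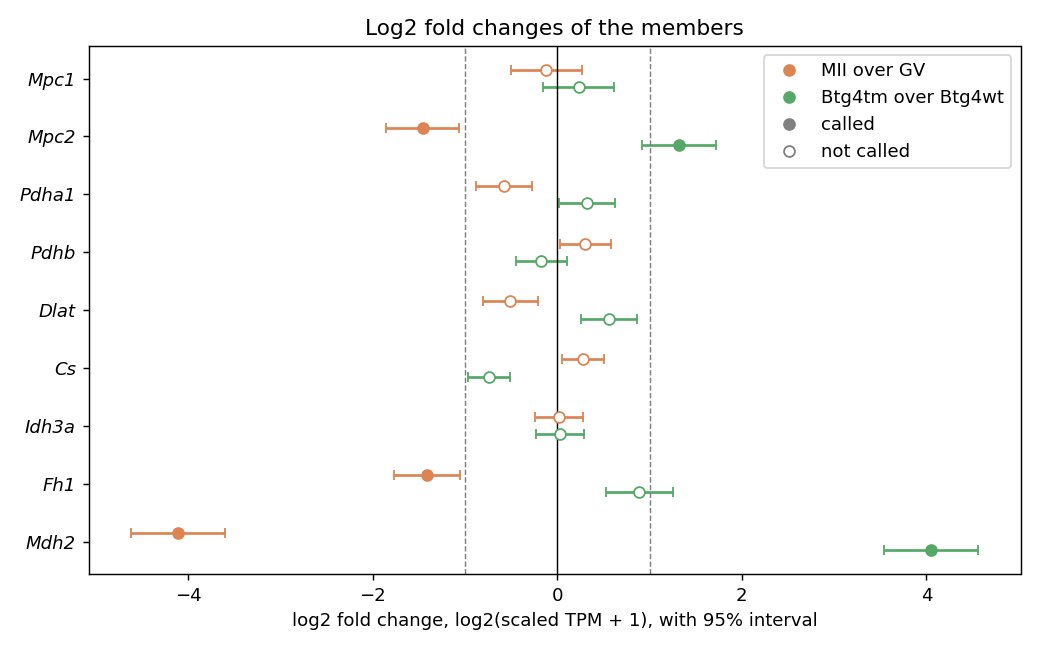
Log2 fold changes of the 9 members in MII over GV and in Btg4tm over Btg4wt, on the log2(scaled TPM + 1) scale, with 95% intervals from limma. Filled points were called, and dashed lines mark the minimum fold. Mdh2 lay farthest out, at -4.11 and 4.05, and the intervals of Idh3a spanned 0 in both comparisons. Signs of Mpc1, Pdhb, Cs and Idh3a changed in 1 or both comparisons under the settings plotted further on.

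The TCA cycle members differed from each other. *Cs* (chr10:128337734-128362479, plus strand) encodes citrate synthase, the entry of the cycle. It read 72.3 and 77.8 scaled TPM in GV, 91 and 91.5 in MII, 114 and 106 in Btg4wt, and 66.8 and 63.8 in Btg4tm oocytes. *Cs* was the 1 member that went the other way in both comparisons by the adjusted p, higher in MII over GV (log2 fold change 0.28 ± 0.1 SE, adjusted p = 0.04, limma) and lower in Btg4tm over Btg4wt (-0.74 ± 0.1 SE, adjusted p = 0.00049, limma). Both values stayed under the minimum fold. The adjusted p for *Cs* in MII over GV was no longer under 0.05 with TPM as deposited (0.12, adjusted p = 0.37, limma), with the replicate block (adjusted p = 0.052, limma), with eBayes without trend (adjusted p = 0.098, limma), or without any 1 of the GV or MII libraries (adjusted p from 0.054 to 0.16, limma). Scaling to the mitochondrially encoded RNAs turned them to -1.91 and 0.34, where the median of all genes also moved to -1.74 and 0.88.

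*Idh3a* (chr9:54586334-54604661, plus strand) encodes the catalytic alpha subunit of the NAD-dependent isocitrate dehydrogenase. It read 76.6 and 74.6 scaled TPM in GV, 75.7 and 77.9 in MII, 88.6 and 90.4 in Btg4wt, and 100 and 83.4 in Btg4tm oocytes. No difference passed the test in MII over GV (log2 fold change 0.02, 95% interval -0.24 to 0.28) or in Btg4tm over Btg4wt (0.03, -0.23 to 0.29). These intervals hold changes of less than the minimum fold in either direction.

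*Fh1* (chr1:175600374-175625635, minus strand) encodes fumarase, which makes malate from fumarate. It read 77.8 and 92.6 scaled TPM in GV, 35.1 and 27.8 in MII, 33.9 and 32.9 in Btg4wt, and 57.1 and 68.5 in Btg4tm oocytes. Every MII and Btg4wt library lay below every Btg4tm library, and these below GV. *Fh1* fell in MII over GV (log2 fold change -1.41 ± 0.16 SE, adjusted p = 9.8e-05, limma), a 2.71-fold higher mean in GV. Its rise in Btg4tm over Btg4wt passed the adjusted p at 0.89 (95% interval 0.53 to 1.25, adjusted p = 0.0019, limma) but not the minimum fold, which it passed at 1.01 without Btg4tm replicate 1.

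*Mdh2* (chr5:135778480-135790398, plus strand) encodes mitochondrial malate dehydrogenase, which closes the cycle by remaking oxaloacetate and is also the mitochondrial arm of the malate-aspartate shuttle. It was the most abundant member in GV oocytes, at 213 and 183 scaled TPM. It read 8.65 and 12.7 in MII, 11.8 and 7.6 in Btg4wt, and 174 and 171 in Btg4tm oocytes. The mean in GV was 18.6-fold that in MII oocytes (log2 fold change -4.11 ± 0.22 SE, adjusted p = 2.4e-06, limma). The mean in Btg4tm was 17.8-fold that in Btg4wt oocytes (4.05 ± 0.22 SE, adjusted p = 4.6e-06, limma). Without the length and GC trends the log2 fold changes were -2.98 and 3.21 and both calls remained.

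The order of the members therefore changed between groups. In GV oocytes *Mdh2* (mean 198 scaled TPM) led, followed by *Fh1* at 85.2, *Idh3a* at 75.6, *Cs* at 75.1, *Pdhb* at 66.6, *Mpc1* at 62.5, *Pdha1* at 58.3, *Dlat* at 35.3 and *Mpc2* at 16.6. Between libraries, *Idh3a* overlapped *Cs*, and *Mpc1* overlapped both *Pdhb* and *Pdha1*, so the order of these neighbours is within their spread. In MII oocytes *Cs* (91.3) and *Pdhb* (82.5) led, and *Mdh2* (10.7) stood last but for *Mpc2* (5.41). These levels compare genes per length, with gene lengths that the sources used here do not give. Summed over the 9 members, the libraries read 652.1 and 693.4 scaled TPM in GV, 415.7 and 421.4 in MII, 434.9 and 477.2 in Btg4wt, and 622.7 and 648.3 in Btg4tm.

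Within the cycle, the ratio to citrate synthase does not depend on scaling, but it reuses the levels tested above. *Cs* itself moved the other way (log2 fold changes 0.28 and -0.74), which widens the differences in the ratio. Like the other ratios, this ratio is not free of differences in transcript length and GC content. These were 1456 bases and 55.4% in *Mdh2*, and 2926 bases and 50.4% in *Cs*. *Mdh2* was 2.94 and 2.34 times the *Cs* level in GV, 0.0951 and 0.138 in MII, 0.104 and 0.0719 in Btg4wt, and 2.6 and 2.69 in Btg4tm libraries. *Fh1* was 1.08 and 1.19 times *Cs* in GV, 0.386 and 0.304 in MII, 0.298 and 0.311 in Btg4wt, and 0.855 and 1.07 in Btg4tm libraries. Against *Mdh1*, the cytosolic malate dehydrogenase, *Mdh2* stood at 1.81 and 1.54 in GV, 0.0421 and 0.0605 in MII, 0.0502 and 0.0337 in Btg4wt, and 0.943 and 0.803 in Btg4tm libraries. *Mdh1* itself read 117 and 119 scaled TPM in GV, 205 and 209 in MII, 235 and 226 in Btg4wt, and 184 and 214 in Btg4tm oocytes. Its log2 fold change was 0.81 in MII over GV (adjusted p = 2e-04, limma) and 0.75 in Btg4tm over GV (adjusted p = 0.0057, limma). Both stayed under the minimum fold.

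**Figure D3:**
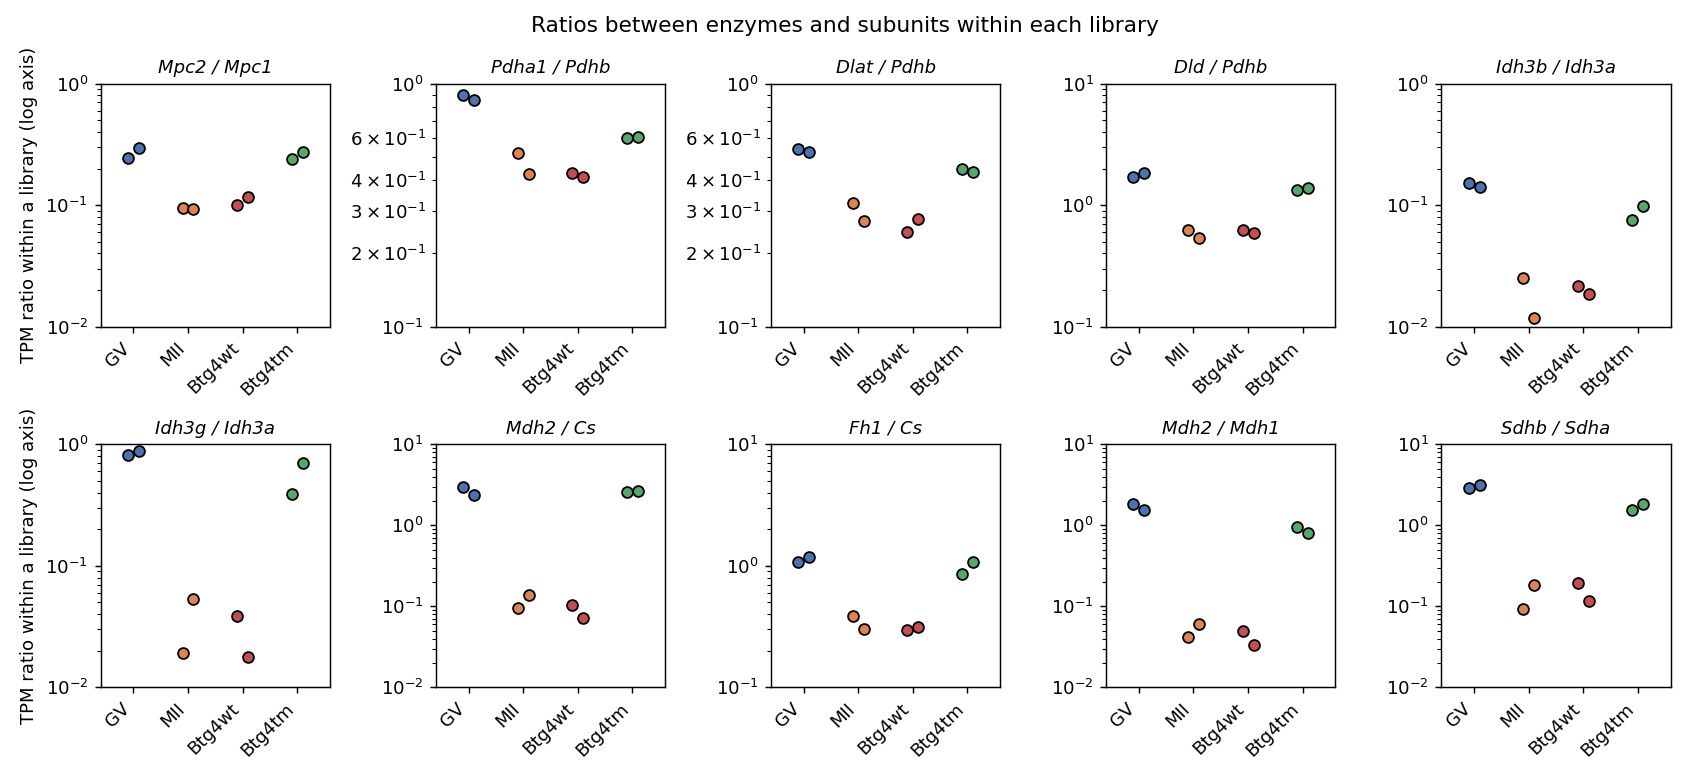
Ratios of TPM between pairs of genes within each library (log axes), for GV, MII, Btg4wt and Btg4tm oocytes, with 1 point per library. In all 10 pairs the MII and Btg4wt points lie below the GV and Btg4tm points. In each pair the numerator also had a lower log2 fold change in MII over GV than the denominator, so the 10 pairs are not separate results. For Mdh2 over Cs, the MII libraries read 0.0951 and 0.138 against 2.34 and 2.94 in GV.

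Uninjected MII and Btg4wt oocytes were close for every member. In Btg4wt over MII, limma called 0 of the 9 members lower and 0 higher, as it called 0% of all genes lower and 0% higher. At an unadjusted p under 0.05 there was 1 member (*Cs*, log2 fold change 0.26, 95% interval 0.03 to 0.49), while 11.8% of all genes reached this. Over the 9 members, the log2 fold changes ran from -0.19 to 0.26. The widest interval was that of *Mdh2*, from -0.64 to 0.38. This comparison shares its libraries with those above.

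Btg4tm oocytes also stood near the GV level. In Btg4tm over GV, 0 members were called lower and 0 higher by limma, against 1.02% of all genes lower and 1.02% higher. At an unadjusted p under 0.05 there were 3 members, *Fh1* at -0.44 (95% interval -0.8 to -0.08), *Pdhb* at 0.31 (0.03 to 0.58) and *Idh3a* at 0.27 (0.01 to 0.53), while 29.7% of all genes reached this. *Mdh2* was at -0.19 (-0.7 to 0.32) and *Mpc2* at -0.14 (-0.54 to 0.26). These intervals leave room for a modest difference in either direction. As a description, the difference of Btg4tm from Btg4wt was 98.6% of that of GV from MII for *Mdh2* on the log2 scale, 90.5% for *Mpc2* and 62.7% for *Fh1*. On the linear scale the shares were 87.1%, 86.3% and 54.7%.

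The 9 members are a small sample of the pathway, and 46 further genes were put in 7 lists around them. Of these, 43 were listed in both sets of tables and 41 were tested. In MII over GV, 15 were called lower and 2 higher, and their median log2 fold change was -0.46. Among all genes tested, 24% were called lower and 12.5% higher, with a median of 0. In Btg4tm over Btg4wt, 12 were called higher and 1 lower, and their median was 0.22. Among all genes tested, 18.1% were called higher and 7.94% lower, with a median of 0.01. These shares of all genes apply to the counts of each list below. Only the 9 members were followed under the other settings. The calls of the listed genes were therefore not checked with length and GC trends removed.

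Most of the other TCA cycle enzymes were called. Of 12 tested, 8 were called lower and 1 higher in MII over GV, beside 24% and 12.5% of all genes. In Btg4tm over Btg4wt, 7 were called higher and 1 lower, beside 18.1% and 7.94% of all genes. *Idh3g*, the gamma subunit of isocitrate dehydrogenase, read 62.2 and 65.5 scaled TPM in GV, 1.45 and 4.19 in MII, 3.44 and 1.6 in Btg4wt, and 39.1 and 59.1 in Btg4tm oocytes (log2 fold changes -4.19 and 3.85). *Sdhb*, the iron-sulphur subunit of succinate dehydrogenase, read 132 and 128, 5.3 and 9.89, 11.8 and 6.23, and 99.5 and 99.2 in the same order (-3.98 and 3.38). *Sdhd*, a membrane anchor of that enzyme, was the most abundant of this list at 552 and 511 in GV oocytes and fell to 59.5 and 53.8 in MII oocytes (-3.21, with 2.88 in Btg4tm over Btg4wt).

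*Idh3a* did not pass the test while both of its partner subunits were called. *Idh3g* was 0.811 and 0.878 of the *Idh3a* level in GV, 0.0191 and 0.0537 in MII, 0.0388 and 0.0177 in Btg4wt, and 0.39 and 0.708 in Btg4tm libraries. *Idh3b*, the beta subunit, was 0.153 and 0.141, 0.0249 and 0.0118, 0.0215 and 0.0184, and 0.0749 and 0.0988 of *Idh3a* in the same order. Its own level was low, at 11.7 and 10.5 scaled TPM in GV and 7.5 and 8.24 in Btg4tm. It read 1.89 and 0.918 in MII and 1.9 and 1.66 in Btg4wt, near the filter of 1 TPM. Succinate dehydrogenase subunits also differed. *Sdha*, its catalytic subunit, read 45.9 and 41 scaled TPM in GV and 56.4 and 53.4 in MII oocytes (log2 fold change 0.33, adjusted p = 0.055, limma), and *Sdhc*, a membrane anchor like SDHD, was not called either (-0.46, with -0.12 in Btg4tm over Btg4wt). *Sdhb* was 2.88 and 3.11 times *Sdha* in GV but 0.094 and 0.185 in MII, 0.195 and 0.115 in Btg4wt, and 1.54 and 1.84 in Btg4tm libraries.

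Single genes in this list went against the majority. *Suclg2*, the GTP-forming beta subunit of succinyl-CoA synthetase, was called higher in MII (22.1 and 20.1 scaled TPM in GV, 49.2 and 49.8 in MII; log2 fold change 1.2). *Sucla2*, its ATP-forming counterpart, was called lower (127 and 110 in GV, 42.2 and 39.6 in MII; -1.51). *Ogdh*, the E1 subunit of the 2-oxoglutarate dehydrogenase complex, read 87.6 and 90.4 in Btg4wt and 27.9 and 30.7 in Btg4tm oocytes, and was called lower in the mutant (-1.57). *Dlst*, the E2 subunit of the same complex, was called higher there (1.2). *Idh3b*, *Suclg2*, *Sucla2*, *Ogdh*, *Dlst*, *Sdha* and *Sdhc* were chosen after their values were seen.

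Around pyruvate dehydrogenase, *Dld*, the E3 subunit shared with the 2-oxoglutarate complex, was called lower in MII at 48.3 and 46.3 scaled TPM, beside 118 and 119 in GV oocytes (log2 fold change -1.31). In Btg4tm over Btg4wt its value was 0.97, under the minimum fold. Of the 3 other subunits, 1 was called lower and 1 higher in MII over GV, beside 24% and 12.5% of all genes. In Btg4tm over Btg4wt limma called 0, as the 2 that were higher by the adjusted p stayed under the minimum fold. Over all genes, 49.5% passed this adjusted p in either direction. Of 6 kinases and phosphatases tested, 1 was called lower in MII over GV, beside 24% of all genes. In Btg4tm over Btg4wt limma called 0, while 2 were higher and 1 was lower by the adjusted p but under the minimum fold, against the same 49.5%. Among the 3 lipoate attachment genes, *Lipt1*, which transfers lipoate to proteins such as DLAT, read 180 and 167 in GV, 19.1 and 15.5 in MII, 16.9 and 18.9 in Btg4wt, and 127 and 146 in Btg4tm oocytes (-3.25 and 2.86). *Lipt2*, the octanoyltransferase that starts lipoate synthesis, gave -1.35 and 1.63, and both were called in both comparisons. Among all genes, 24% were called lower in MII over GV and 18.1% higher in Btg4tm over Btg4wt.

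Of 4 tested genes of pyruvate and lactate entry, *Bsg* was the 1 that was called, with 224 and 214 scaled TPM in GV, 45.4 and 71.1 in MII, 80.6 and 56 in Btg4wt, and 193 and 200 in Btg4tm oocytes (log2 fold changes -1.93 and 1.53). In these directions 24% and 18.1% of all genes were called. Basigin escorts monocarboxylate transporters to the plasma membrane. The lactate dehydrogenase RNA was almost all *Ldhb*, from 10600 to 20100 scaled TPM over the 8 libraries, while *Ldha* read 0.167 to 1.55. This pair was chosen after its values were seen. In the malate-aspartate shuttle, 2 of 6 genes were called lower in MII over GV and the same number higher in Btg4tm over Btg4wt. Of all genes, 24% and 18.1% were called in these directions. *Got1*, the cytosolic aspartate aminotransferase, gave -2.16 and 2.29, and *Slc25a11*, the 2-oxoglutarate/malate carrier, gave -1.15 and 1.23. Of 7 tested genes for reactions that feed or leave the cycle, limma called 0 in either comparison. By the adjusted p without the minimum fold, 2 were lower and 3 higher in MII over GV. In Btg4tm over Btg4wt, 1 was lower and 1 higher. Over all genes, 62.6% and 49.5% passed this adjusted p.

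**Figure D4:**
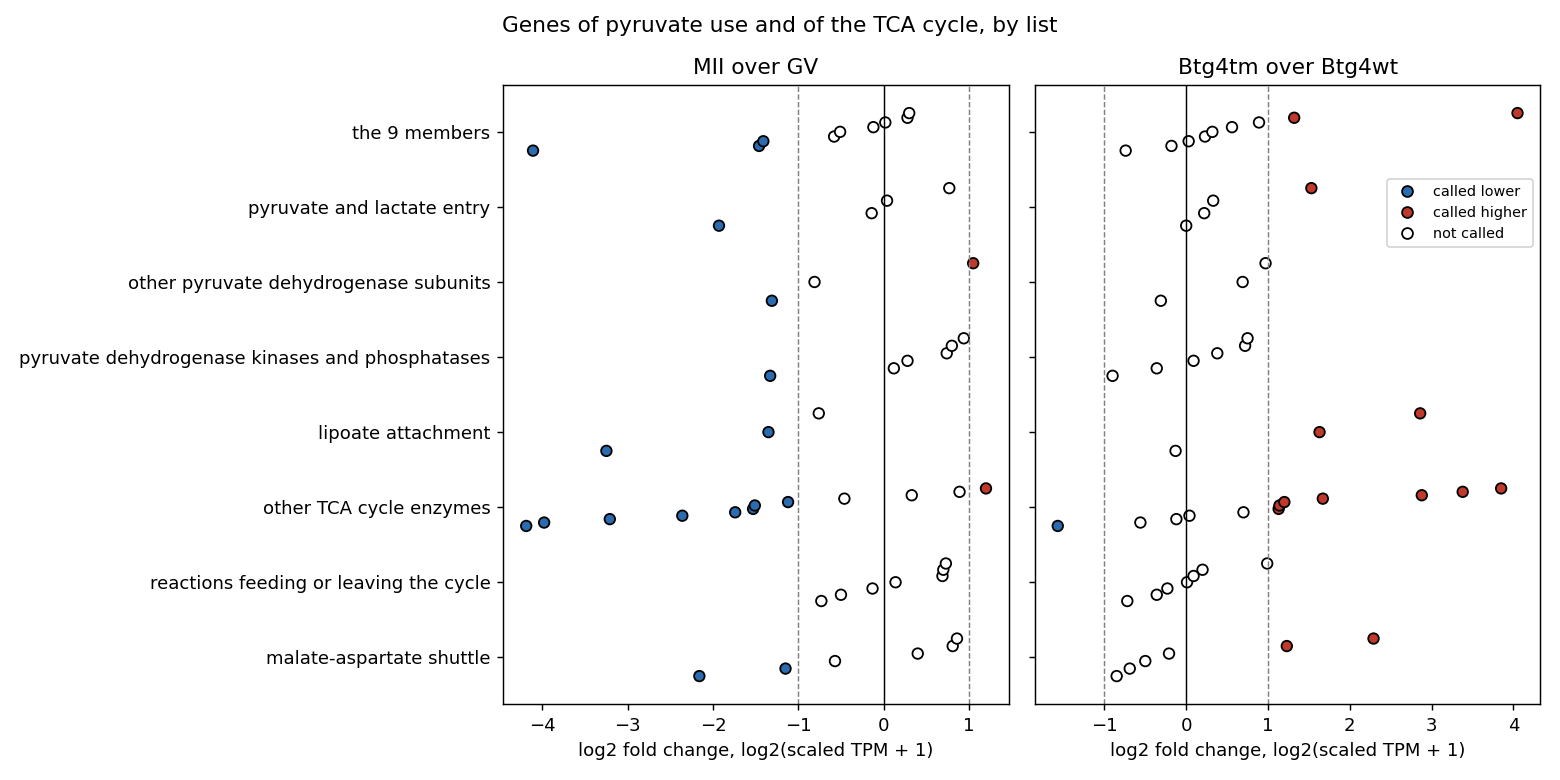
Log2 fold changes, on the log2(scaled TPM + 1) scale, of the 9 members and of the tested genes of 7 further lists in MII over GV (left) and Btg4tm over Btg4wt (right), with 1 point per gene. Blue points were called lower and red points higher, and dashed lines mark the minimum fold. The other TCA cycle enzymes hold 8 blue points on the left and 7 red points on the right.

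The polyadenylation element went with the same order of medians in the members as in all genes. Over 2132 genes with TTTTAT in the window, the median log2 fold change in MII over GV was 0.48, beside -0.08 over 8965 genes without it. For the members the medians were -0.28 with the element and -0.51 without it. In Btg4tm over Btg4wt the medians were -0.22 with and 0.02 without it over all genes, and 0.18 with and 0.56 without it for the members. These are descriptions of 4 and 5 members, and element and transcript length cannot be told apart in them. The members with it measured 2403 to 2926 bases, and those without it 958 to 1513 bases, apart from *Dlat* at 4035. Over all genes the part of length in this order was not tested. *Fh1*, whose match shown above follows the poly(A) signal, was called lower, and *Pdha1* was lower by the adjusted p. *Cs*, whose match also follows the signal, was higher by the adjusted p, and *Idh3a* did not pass the test.

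How firmly a member's value stood is shown by its range over other processing. Over all settings apart from the 2 named next, *Mdh2* ran from -4.35 to -3.85 in MII over GV and from 3.76 to 4.33 in Btg4tm over Btg4wt. *Fh1* ran from -1.57 to -1.2 and from 0.64 to 1.01. Removing length and GC trends moved *Mpc1*, *Mpc2*, *Pdhb* and *Mdh2*, the shortest transcripts of the 9, the most, and scaling to mitochondrially encoded RNAs moved all 9 members down in MII over GV and up in Btg4tm over Btg4wt.

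**Figure D5:**
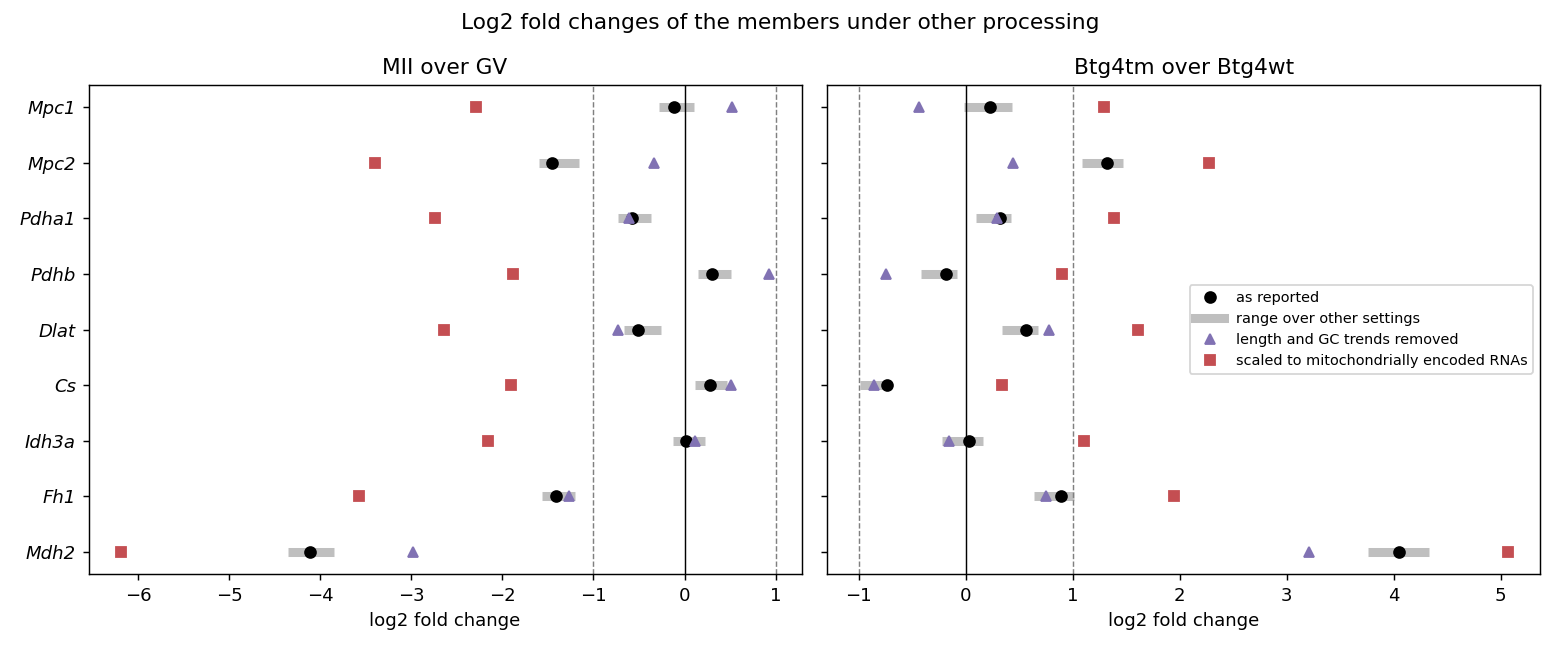
Log2 fold changes of the members as reported (circles), their range over the other settings and left-out libraries (grey bars), with length and GC trends removed (triangles), and with scaling to mitochondrially encoded RNAs (squares). Mpc2 moved inside the dashed lines of the minimum fold, to -0.34 and 0.44, without the trends, while Mdh2 stayed outside them at -2.98 and 3.21. With the mitochondrial scaling all values on the left lie below 0 and all on the right above it.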

How the data were processed

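The authors trimmed reads with Trim Galore 0.6.10, aligned them with HISAT2 2.2.0 to GRCm38 and counted them on exons with featureCounts 2.0.6, without regard to strand and with low-quality mappings dropped, per the submitters' processing notes and the methods. They deposited TPM per gene symbol, whose gene lengths are not given in the sources used here. TPM carry no depth, so the precision rests on 2 libraries per group.

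The filter kept genes reaching 1 TPM or more in 2 or more libraries. After median-of-ratios scaling, log2(TPM + 1) was fitted by limma 3.58.1 in R 4.3.3 over all 8 libraries, with a trended eBayes step. A gene was called at a Benjamini-Hochberg adjusted p under 0.05 if its log2 fold change also exceeded 1 in size. Fold changes on this scale understate low genes. The procedure was tested on simulated data, whose settings and outcome are not given here.

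The members, lists and tests were chosen with earlier results of these data known. All 9 members are named. Each list further gives, by name, the genes called in MII over GV or in Btg4tm over Btg4wt whose mean reached 10 scaled TPM, at most the 3 largest changes per comparison, plus *Mdh1*. Named exceptions are marked. Transcripts came from GENCODE M21, by symbol for 13663 of the 13968 genes. The alternatives changed the scaling (TPM as deposited, quantile normalisation, mitochondrially encoded genes), the pseudocount (0.1), the filter (none, or 5 TPM), or the fit (the 4 libraries compared, a replicate block, no eBayes trend). Others dropped the minimum fold, took the regained share on a linear scale or left out each library. Added later was a removal of length and GC trends by loess with a span of 0.3.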

Additional observations from a re-analysis of the deposited data

How the results depend on the processing

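Scaling to the mitochondrially encoded RNAs gave 9 members called lower in MII over GV in place of 3, 7 called higher in Btg4tm over Btg4wt in place of 2, and 1 called lower in Btg4tm over GV in place of 0. It lowered the median regained share from 90.5% to 66.8%, and turned *Pdhb* to -1.88, *Cs* to -1.91 and *Idh3a* to -2.16 in MII over GV, and *Pdhb* to 0.9 and *Cs* to 0.34 in Btg4tm over Btg4wt. It moved the median of all genes to -1.74 and 0.88, and calls over all genes to 81.6% lower and 0.0501% higher, and 43.6% higher and 0.494% lower. Removing length and GC trends, a choice made after the data were seen, left 1 member called higher in Btg4tm over Btg4wt, turned *Mpc1* to 0.52 and -0.44, and gave 17% lower and 17.3% higher over all genes in MII over GV, and 12.8% higher and 10.8% lower in Btg4tm over Btg4wt. The cause was not tested. Without a minimum fold, 5 members were lower and 1 higher in MII over GV, and 4 were higher and 1 lower in Btg4tm over Btg4wt, where 62.6% and 49.5% of all genes passed.

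Counts of called members and the regained share kept within 1.5 times or 1 SD for 158 values under the other settings, and leaving out a library gave regained shares from 79% to 98%. Of 648 values of single members, 7 changed sign with an adjusted p under 0.05 in either fit, all given above, and 27 more changed sign without it. The values showed no pairing by replicate number, as correlations of replicate differences between groups ran from -0.054 to 0.055. These correlations cannot show whether libraries of the same number were prepared together. With the replicate block, 3 members were called lower in MII over GV and 2 higher in Btg4tm over Btg4wt. A group with a library left out kept 1, which was assumed to vary like the other groups. TPM give no counting error, so levels such as that of *Mpc2* have no known depth behind them.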
